A study of Mus musculus with 10 samples.

Results

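Fatty acid oxidation was followed through 38 genes listed by symbol, which encode the enzymes that activate fatty acids, carry them into mitochondria as carnitine esters, shorten them in mitochondria and peroxisomes and pass the electrons on. All 38 symbols were found among the 21098 genes of the count table, and 28 of them had enough counts to be tested. The RNA came from gastrocnemius, a calf muscle, of wild-type male C57BL/6J mice made obese by a high-fat diet (diet-induced obese, DIO), with 5 libraries in each group. Per the labels the mice were 9 weeks old when the diet began and stayed on it for 9 weeks before treatment, and the series' design text gives their age at the end as 30 weeks. Together with the 14 weeks of treatment these stages do not add up to that age. The treated group (ASO) received an antisense oligonucleotide against miR-22, named RES-010 in the labels, under the skin once a week for 14 weeks at 10 mg/kg, and the control group (CTRL) received saline. The methods state that both groups stayed on the diet during treatment. Because the control was saline, an effect of the blocked microRNA and an effect of receiving any oligonucleotide cannot be told apart. The labels do not say that each library came from its own mouse, and if some did not, the p-values measure the spread between these samples, which may be technical.

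A fatty acid enters oxidation once acyl-CoA synthetases (the Acsl genes) join it to coenzyme A. Carnitine palmitoyltransferase 1 (Cpt1b in muscle, Cpt1a in liver and many other tissues) then transfers it to carnitine, a carrier takes it through the inner mitochondrial membrane, and Cpt2 returns it to coenzyme A. Each round of β-oxidation removes a piece of acetyl-CoA through an acyl-CoA dehydrogenase, a hydratase, a 3-hydroxyacyl-CoA dehydrogenase and a thiolase, and the electron transfer flavoprotein takes the electrons to the respiratory chain. Peroxisomes run a like cycle on very long and branched chains, and thioesterases (the Acot genes) release free fatty acids again. Skeletal muscle relies on this pathway at rest and during long exercise, most of all in slow oxidative fibers.

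The oligonucleotide is directed at miR-22, so the sequence of the microRNA and its matches among the listed genes are shown first. MicroRNAs pair through their seed, bases 2 to 8, which stand in capitals in the mature sequence as RefSeq gives it (GRCm38.p6). The complement of the seed is the heptamer GGCAGCT. It occurs in the canonical 3′UTR (GENCODE M39, GRCm39) of 5 of the 38 genes, or 13.2%, against 14.0% of 20858 protein-coding genes. Each of the 5 matches is shown with its flanking bases in a window of at most 30 bases on the transcript's strand, with the heptamer in capitals.

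miR-22-3p: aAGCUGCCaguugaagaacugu
Acad9, plus strand, chr3:36145406-36145412: actaagatttgGGCAGCTattccttctaaa
Cpt1a, plus strand, chr19:3437037-3437043: aacaagacagaGGCAGCTttagccaaccta
Echs1, minus strand, chr7:139686213-139686219: cactgagaactGGCAGCTataccgtttgcc
Hadha, minus strand, chr5:30324321-30324327: gggagatgtcgGGCAGCTgctttagacagg
Acot1, plus strand, chr12:84065095-84065101: aacacaagacaGGCAGCTaagaggaaacat

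A match of 7 letters is a description and no proof of a working site. Of these 5 matches, the one in Acot1 lies within a counted segment, which holds 2 counts, and the other 4 lie outside every counted segment of their gene. With the ASO, Acad9 was lower, Cpt1a, Echs1 and Acot1 did not pass the test, and Hadha was listed at 0 in all 10 libraries. Of the 1044 counts of Acad9, 15 lie on the segment of its canonical 3′UTR. None of the 4 tested genes with a match was called higher, where 11.8% of all genes tested were higher and 17.4% lower.

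What was deposited is a count of read pairs on segments of at most 500 bp at the 3′ ends of annotated transcripts, and the segments of each gene were summed. Library totals lay between 1606909 and 2116720 counts in CTRL and between 2239186 and 2632560 with the ASO, so each treated library was deeper than each control library. Levels are given as CPM (counts scaled to 1000000 per library), with library sizes scaled by the TMM method, with the SD over 5 libraries. The groups were compared with edgeR's quasi-likelihood test over 7813 genes at a Benjamini-Hochberg adjusted p-value of 0.05. Segments that lie mostly in introns (at least 50% of their length) took 9.76% to 12.6% of the counts in CTRL and 7.32% to 8.40% with the ASO. In 1261 genes with segments far enough apart, the median log2 ratio of distal to upstream counts ran from −0.59 to 0.43 in CTRL and from 1.18 to 1.77 with the ASO. Neither measure overlapped between the groups, and their part in the results was not tested. Libraries also differed in tissue markers, most in CTRL replicates 1 and 3 and ASO replicate 4, whose values are given beside the results they touch.

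Of the 28 genes tested, 7 were lower and 2 were higher with the ASO. The 7 lower genes were Acsl1, Cpt1b, Crat, Acadm, Acad9, Acad11 and Hadhb, and the 2 higher ones were Etfb and Acot13. Lower calls made up 25% of the genes tested here, against 17.4% of all 7813 genes, and higher calls 7.14% against 11.8%. The ASO libraries lay entirely below the CTRL libraries in 6 of the 28 genes (21.4%, against 13.4% of all genes), and entirely above in 0 (against 7.97%). The median log2 fold change of the 28 genes was −0.28, with 20 negative and 8 positive, and that of all genes was −0.03. Scaling by total counts moved the median of all genes to −0.20 and that of the 28 genes to −0.46. In bulk muscle, less RNA per fiber and fewer fibers or other cells of a type cannot be told apart.

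**Figure D1:**
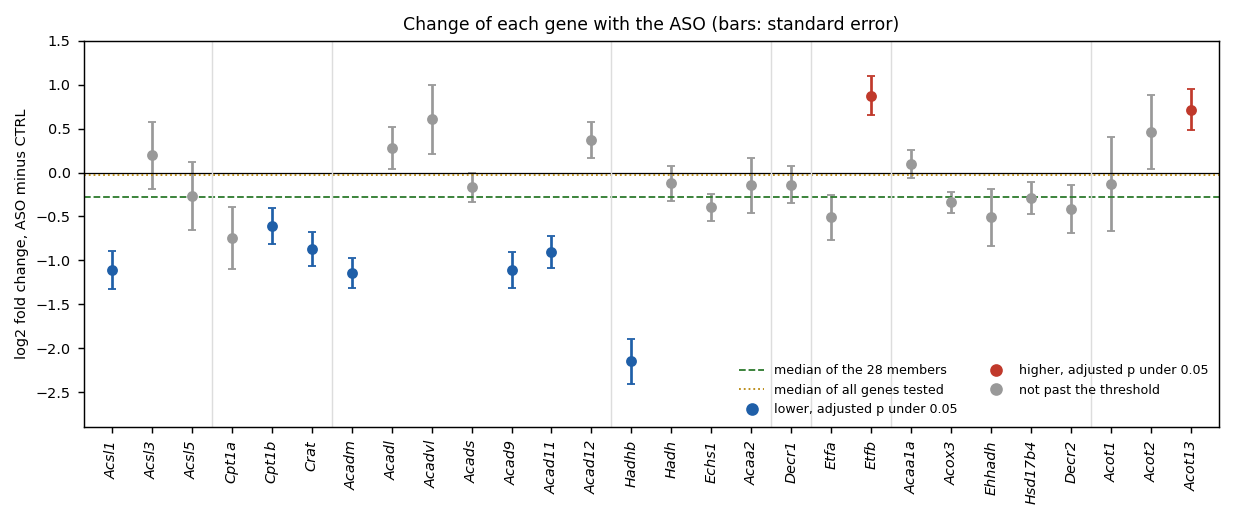
log2 fold change (ASO minus CTRL) of the 28 genes tested, ordered by step of the pathway, with bars for the standard error from edgeR; blue marks the 7 lower genes, red the 2 higher genes and grey the other 19. The dashed line is the median of the 28 genes (−0.28) and the dotted line that of all genes tested (−0.03), and the values run from −2.15 for Hadhb to 0.87 for Etfb.

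The step of activation was represented by Acsl1, the main acyl-CoA synthetase of muscle and fat. Acsl1 had 2479, 1504, 3138, 2092 and 1717 CPM in CTRL replicates 1 to 5, and 963, 1081, 1004, 1278 and 751 CPM in ASO replicates 1 to 5. The groups did not overlap, and CTRL replicate 3 was the highest library. The mean was 2186 ± 649 CPM in CTRL and 1015 ± 191 CPM with the ASO (SD, n = 5 per group), and the log2 fold change was −1.11 (SE 0.21, edgeR adjusted p = 0.0028). CTRL replicate 3 also held 1600 CPM of the adipocyte gene Adipoq, against 2.81 to 319 CPM in the other controls and 18.7 to 448 CPM with the ASO. Without that library Acsl1 was still called, as it was without each other library, with log2 fold changes from −1.21 to −0.94. Acsl3 and Acsl5, further synthetases of the family, had at most 52.3 and 16.7 CPM in any library and log2 fold changes of 0.19 and −0.27 that did not pass the test.

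At the carnitine shuttle all 3 genes tested had negative values, and 2 of them were called lower (66.7%, against 17.4% of all genes). Crat, the carnitine acetyltransferase that buffers acetyl-CoA, had 1060, 809, 740, 1079 and 1129 CPM in the CTRL libraries. It had 564, 650, 339, 524 and 564 CPM in the ASO libraries, so that the groups did not overlap. Its log2 fold change was −0.87 (SE 0.19, edgeR adjusted p = 0.0053). Cpt1b, the gate of long-chain oxidation in muscle, had 1235, 595, 560, 820 and 769 CPM in CTRL and 494, 510, 483, 627 and 506 CPM with the ASO. Here the highest treated library stood above the 2 lowest controls, and the log2 fold change was −0.60 (SE 0.21, edgeR adjusted p = 0.043). That call was lost with RLE size factors (adjusted p = 0.051), and without each of CTRL replicates 1, 4 and 5 and ASO replicates 1, 2, 3 and 5 (adjusted p from 0.069 to 0.10). Without CTRL replicate 1 the fold change also shrank to −0.39. Cpt1a, the other isoform, averaged 36.4 ± 22.7 CPM in CTRL and 21.8 ± 6.99 CPM with the ASO, with a log2 fold change of −0.75 (edgeR adjusted p = 0.13). Its highest control was CTRL replicate 3 at 76.5 CPM, and without that library the value was −0.28.

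Among the acyl-CoA dehydrogenases, which take the first 2 electrons from an acyl-CoA, 3 of 7 genes tested were lower and 0 were higher. The lower share was 42.9%, where 17.4% of all genes were lower and 11.8% higher. Acadm, the medium-chain enzyme, had 2176, 1281, 1299, 1484 and 1468 CPM in CTRL and 658, 788, 623, 788 and 624 CPM with the ASO. Each control lay above each treated library, and the mean went from 1542 ± 367 to 696 ± 84.9 CPM. The log2 fold change was −1.15 (SE 0.17, edgeR adjusted p = 6.9e-04), and Acadm was lower in all 22 alternative fits, those of single groups of segments included. Acad11 and Acad9 followed the same order. Acad11, which acts on chains with a hydroxyl group or of great length, had 165, 114, 159, 143 and 121 CPM in CTRL and 85.8, 93.6, 48.7, 71.7 and 75.8 CPM with the ASO (log2 fold change −0.90, SE 0.18, edgeR adjusted p = 0.0034). Acad9, better known as an assembly factor of respiratory complex I, had 66.5, 50.9, 79.9, 74.4 and 75.8 CPM in CTRL. With the ASO it had 39.3, 39.6, 18.5, 34.0 and 30.0 CPM, a log2 fold change of −1.11 (SE 0.21, edgeR adjusted p = 0.0023). In each of these 3 genes the groups did not overlap.

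The other 4 dehydrogenases tested did not pass the threshold. Acadl, the long-chain enzyme, averaged 921 ± 300 CPM in CTRL and 1120 ± 331 CPM with the ASO (log2 fold change 0.28, edgeR adjusted p = 0.40). Acads, the short-chain enzyme, averaged 239 ± 43.9 and 213 ± 38.5 CPM (log2 fold change −0.17). Acad12 had a log2 fold change of 0.37 and an edgeR adjusted p of 0.20. Acadvl, the very-long-chain enzyme, was counted on a segment with 61 bp of its own and had 111 counts over the 10 libraries, so that its log2 fold change of 0.61 came with a standard error of 0.40.

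Of the later mitochondrial steps, Hadhb was lower, and Hadh, Echs1 and Acaa2 did not pass the test. Hadhb encodes the thiolase subunit of the mitochondrial trifunctional protein. It had 156, 78.7, 87.3, 142 and 135 CPM in CTRL and 32.1, 37.5, 17.2, 28.2 and 19.7 CPM with the ASO, with no overlap. Its log2 fold change of −2.15 (SE 0.26, edgeR adjusted p = 2.0e-04) was the largest of the 28 in size, and 98.4% of its counts came from a segment that lies in an intron over 496 of its 500 bp. Its partner subunit Hadha was listed at 0 in all libraries, although 425 of the 500 bp of its segment overlap no other segment. Hadh, the short-chain 3-hydroxyacyl-CoA dehydrogenase, had 1457, 858, 880, 841 and 807 CPM in CTRL and 704, 725, 1024, 1096 and 893 CPM with the ASO. CTRL replicate 1 stood apart, the other libraries of both groups were mixed, and the log2 fold change was −0.12 (SE 0.20, edgeR adjusted p = 0.67). Echs1, the short-chain hydratase, averaged 248 ± 44.4 CPM in CTRL and 189 ± 26.5 CPM with the ASO (log2 fold change −0.39, edgeR adjusted p = 0.071). It passed the threshold in 4 of 22 alternatives, among them the fits on 3′UTR segments and on the most distal segment and the fit without CTRL replicate 2 (log2 fold change −0.46, adjusted p = 0.047). All counts of Echs1 lie on 1 segment, so the 3′UTR and most distal fits used the counts of the main fit under another scaling. Acaa2, the mitochondrial thiolase for medium chains, had a log2 fold change of −0.14.

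Decr1, the reductase needed for polyunsaturated chains, was the one gene of the 4 for unsaturated fatty acids that could be tested. Its levels were 433, 239, 212, 228 and 246 CPM in CTRL and 197, 221, 335, 230 and 253 CPM with the ASO. The groups overlapped, CTRL replicate 1 was the highest library, and the log2 fold change was −0.14 (SE 0.22, edgeR adjusted p = 0.66).

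The electron transfer flavoprotein is made of the products of Etfa and Etfb, and the values of its genes had opposite signs. Etfb had 109, 74.5, 78.4, 72.0 and 69.7 CPM in CTRL and 94.4, 104, 191, 159 and 192 CPM with the ASO. It was higher with a log2 fold change of 0.87 (SE 0.22, edgeR adjusted p = 0.011), with 1 control among the treated libraries. Etfa had 265, 178, 134, 149 and 122 CPM in CTRL and 83.4, 138, 145, 153 and 76.3 CPM with the ASO (log2 fold change −0.51, SE 0.25, edgeR adjusted p = 0.15). The ratio of Etfa to Etfb within a library avoids the scaling between libraries. On the log2 scale it was 1.03 ± 0.24 in CTRL and −0.31 ± 0.64 with the ASO, with no overlap (exact permutation test over all labellings, two-sided p = 0.0079, the smallest they can give; 0.024 adjusted over 3 ratios). Both genes were counted on short segments, of 216 bp for Etfa and of 61 bp for Etfb, of which 20 bp overlap no other segment. The other 2 ratios tested did not differ beyond the spread, namely Cpt1b to Cpt1a (difference 0.09, exact permutation p = 0.87) and Acaa2 to Acaa1a (difference −0.17, exact permutation p = 0.66). Hadha to Hadhb and Cpt2 to Cpt1b could not be compared because Hadha and Cpt2 were at 0.

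With summed segments 0 of the 5 peroxisomal genes passed edgeR's test, 1 (Acox3) had an unadjusted p under 0.05, and DESeq2 and limma-voom called 0. Acaa1a, the peroxisomal thiolase, had 154, 126, 179, 131 and 103 CPM in CTRL and 140, 132, 164, 161 and 144 CPM with the ASO, which overlapped (log2 fold change 0.10, SE 0.15, edgeR adjusted p = 0.67). Acox3, an oxidase of branched chains, averaged 111 ± 10.5 CPM in CTRL and 87.3 ± 9.20 CPM with the ASO (log2 fold change −0.34, SE 0.12, edgeR adjusted p = 0.056). It passed the threshold in 6 of 21 alternatives, among them the fits without CTRL replicate 3 (−0.39, adjusted p = 0.042) and without ASO replicate 3 (−0.37, adjusted p = 0.049). Ehhadh, Hsd17b4 and Decr2 had log2 fold changes of −0.51, −0.29 and −0.42, with edgeR adjusted p-values from 0.25 to 0.28.

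Among the thioesterases Acot13, a mitochondrial enzyme for medium and long chains, was higher. It had 234, 170, 119, 159 and 132 CPM in CTRL and 205, 216, 415, 246 and 255 CPM with the ASO, so that 1 control stood among the treated libraries. The log2 fold change was 0.72 (SE 0.23, edgeR adjusted p = 0.033). That call was lost in 10 of 22 alternatives, with total counts (adjusted p = 0.075) and without each of CTRL replicates 2, 3, 4 and 5 and ASO replicates 3 and 5 (adjusted p from 0.052 to 0.081). Acot2 averaged 152 ± 102 CPM in CTRL and 209 ± 123 CPM with the ASO (log2 fold change 0.46, SE 0.42), and Acot1 had at most 25.7 CPM in any library. Near-identical copies of these thioesterase genes lie next to each other in the genome, and reads shared between Acot1 and Acot2 may have been split or lost.

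**Figure D2:**
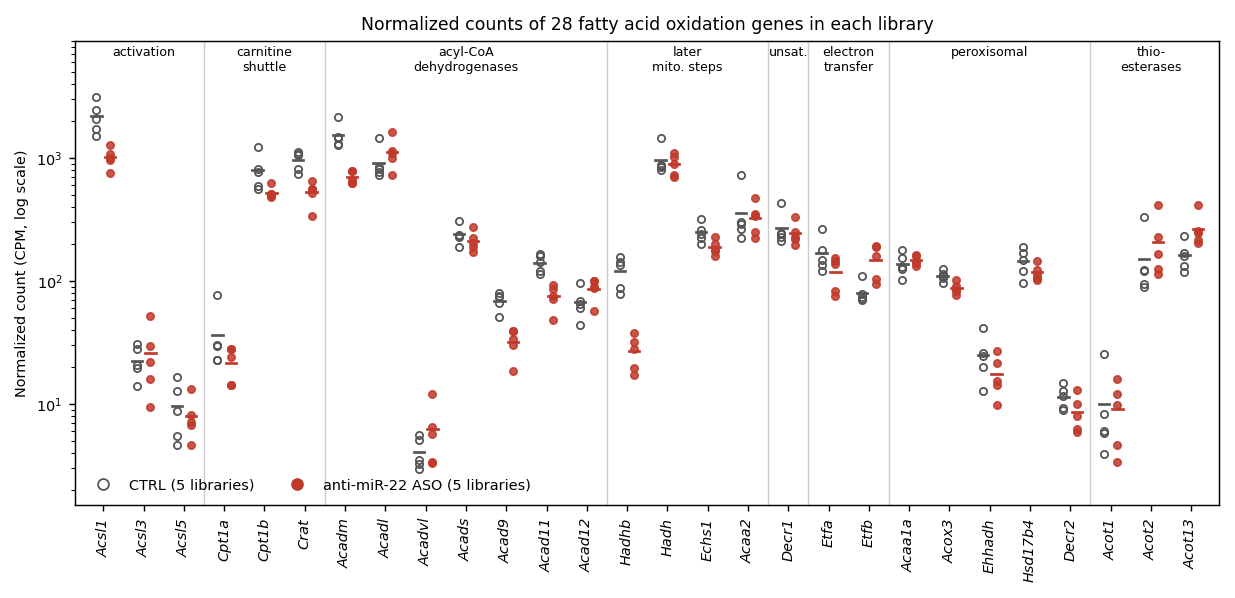
Normalized counts (CPM, log axis) of the 28 genes tested in each library, with open circles for the 5 CTRL libraries, filled circles for the 5 ASO libraries and a short line for each group mean, ordered by step of the pathway. In Acsl1, Crat, Acadm, Acad9, Acad11 and Hadhb the filled circles lie below all open circles, and in the other 22 genes the groups overlap.

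The 10 genes that were not tested are Acsl4, Acsl6, Cpt2, Acad10, Hadha, Hsd17b10, Eci1, Eci2, Ech1 and Etfdh. Of these, 8 had 0 counts in all libraries, Eci1 had 1 and Acsl6 had 35. Leaving out Hadha and Acsl6, no segment of the other 8 has more than 28 bp that overlap no other segment. Over the whole table, the 11480 segments that share both ends with another one hold 0 counts. A value of 0 therefore does not show that Cpt2, Etfdh or the enoyl-CoA isomerases Eci1 and Eci2 are silent in this muscle, and no fold is given for them.

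The changes differed by where in a gene the counts lay, which is why the segments were also fitted one by one. Of the counts of these genes, 79.4% came from segments wholly in the 3′UTR of the canonical transcript, 11.1% from segments mostly in its introns and 9.52% from others, most of them coding. The share on the intronic segments was 12.6% to 21.8% in CTRL and 2.66% to 6.33% with the ASO, with no overlap. Of the 28 3′UTR segments tested, 5 were lower and 2 higher, with a median log2 fold change of −0.19, where 16.5% and 18.8% of all 3′UTR segments were called. Of 9 intronic segments tested, 6 were lower and 0 higher, with a median of −2.15, where 52.4% of all intronic segments were lower and 7.65% higher. Of the 4 other segments, 2 were lower and 1 higher, where 30.3% and 12.8% of all such segments were. Lower values on intronic segments were thus common over the whole table, too.

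Acadm shows the difference within 1 gene. Its 3′UTR segment (chr3:153627994-153628493, minus strand) had 1440, 877, 759, 835 and 764 CPM in CTRL and 553, 666, 581, 683 and 536 CPM with the ASO, without overlap, and was lower by a log2 fold change of −0.59 (SE 0.19, edgeR adjusted p = 0.025). A segment 13954 bp upstream (chr3:153641948-153642447), which ends a transcript annotated for nonsense-mediated decay and covers 115 bp of coding sequence and 385 bp of intron, had 737, 404, 539, 649 and 704 CPM in CTRL. With the ASO it had 105, 123, 42.0, 104 and 88.0 CPM, a log2 fold change of −2.68 (SE 0.27, edgeR adjusted p = 3.3e-05). The upstream segment held 31.5% to 48.0% of the counts of the pair in CTRL and 6.74% to 15.9% with the ASO.

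In Acsl1 and Crat, too, the segment farthest upstream of those fitted had the lowest value. The most distal segment of Acsl1 (chr8:46988589-46989088, plus strand, 3′UTR) had a log2 fold change of −0.31 (SE 0.24, edgeR adjusted p = 0.33). The 3′UTR segment 470 bp upstream, which overlaps it by 30 bp, had −1.44 (SE 0.26, edgeR adjusted p = 7.8e-04), and the one 1596 bp upstream, mostly intron, had −2.76 (SE 0.30, edgeR adjusted p = 4.8e-05). The most distal segment of Crat had −0.12 (edgeR adjusted p = 0.63), and the canonical 3′UTR segment, 630 bp upstream, had −0.57 (edgeR adjusted p = 0.016). An 80-bp 3′UTR segment 2027 bp upstream with 66.3% of the counts had −0.33 (edgeR adjusted p = 0.17), and a mostly intronic one, 7644 bp upstream of the last, had −2.94 (edgeR adjusted p = 1.1e-04).

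Acad12 and Acox3 had segments of opposite sign. The 3′UTR segment of Acad12 was higher with the ASO, with a log2 fold change of 0.74 (SE 0.23, edgeR adjusted p = 0.022). A mostly intronic segment of Acad12 10627 bp upstream was lower, with −2.35 (SE 0.44, edgeR adjusted p = 0.0011). The canonical 3′UTR segment of Acox3 had 0.27 (edgeR adjusted p = 0.28) and a 3′UTR segment 1194 bp upstream of it −1.60 (edgeR adjusted p = 1.7e-04). For Acad9 the canonical 3′UTR segment held 15 counts, and its values rest on a segment mostly in introns (−0.94) and on one of 36 coding bp (−1.63). Cpt1b was counted on 1 segment of 329 coding and 171 intronic bp, since its canonical 3′UTR segment overlaps another gene over all of its 491 bp and has 0 counts. The values of Hadhb, Cpt1b and Acad9 therefore carry no separate measure at the 3′ end.

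**Figure D3:**
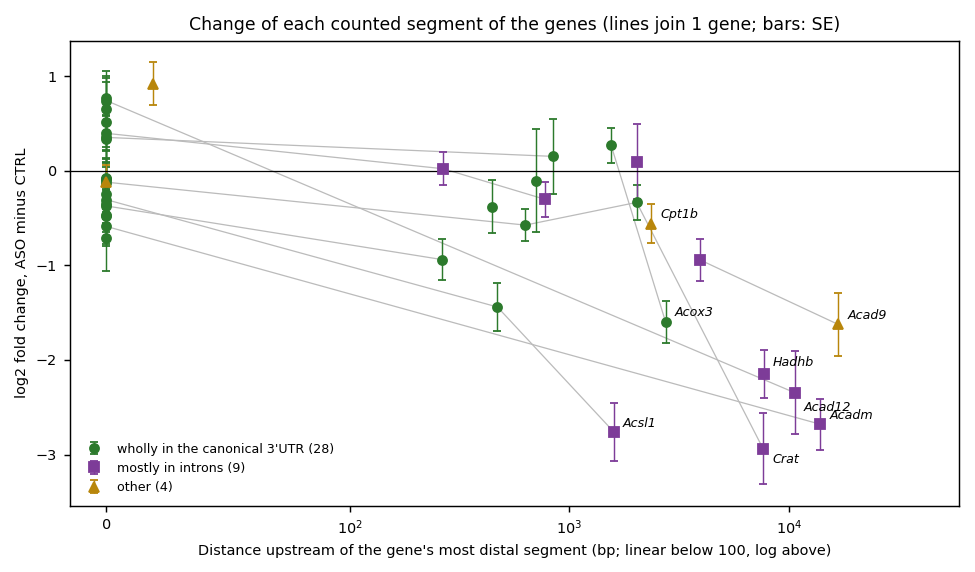
log2 fold change (ASO minus CTRL, with the standard error) of the 41 tested segments of these genes against the distance in bp from the most distal segment of the same gene, on an axis that is linear below 100 bp and logarithmic above. Grey lines join segments of 1 gene; circles mark 28 segments wholly in the canonical 3′UTR, squares 9 mostly in introns and triangles 4 others, and the lowest values, from −2.94 to −2.15, belong to 5 squares more than 1000 bp upstream.

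**Figure D4:**
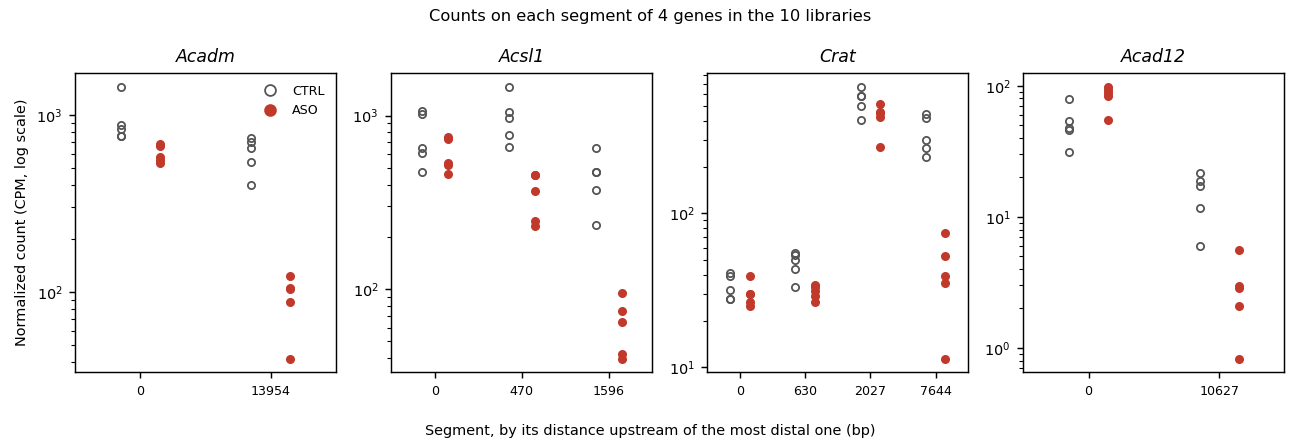
Normalized counts (CPM, log axis) on each tested segment of Acadm, Acsl1, Crat and Acad12 in the 5 CTRL (open) and 5 ASO (filled) libraries, with segments ordered by their distance in bp from the most distal one. On the farthest segment of each of the 4 genes the groups do not overlap, and on the most distal segment they overlap in Acsl1, Crat and Acad12.

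In 9 of these genes 2 segments had at least 100 counts each, and the log2 ratio of the farthest upstream to the most distal of them was compared between the groups. The difference was negative in all 9, from −3.12 in Acad12 to −0.09 in Acsl3, with a median of −1.91 against −1.12 over 2270 genes. It passed in 7 of 9 by the exact permutation test (two-sided, adjusted over 9), with an adjusted p of 0.014 in Acsl1, Crat, Acadm, Acad12 and Acox3 and of 0.031 in Acad9 and Acaa1a. The call of Acad9 was lost without each of CTRL replicates 2, 3 and 4 and ASO replicates 2, 3, 4 and 5, and that of Acaa1a without each of CTRL replicates 2, 3, 4 and 5 and ASO replicates 3, 4 and 5 (adjusted p = 0.061 each by the exact permutation test). At an unadjusted exact permutation p under 0.05 the ratio was lower in the same 7 of 9 genes and in 68.5% of the 2270 genes. In 5 of the 9 the groups did not overlap, where 51.0% of the 2270 genes had lower ratios without overlap, a like share.

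When only segments wholly in the canonical 3′UTR were summed, 23 genes could be fitted, of which 5 were lower and 0 higher. The lower genes were Acadm (log2 fold change −0.74), Acsl1 (−0.99), Acad11 (−1.01), Echs1 (−0.51) and Acox3 (−0.47), where 13.9% of 6125 genes were lower and 9.39% higher. Crat (−0.50, edgeR adjusted p = 0.073) and Acot13 (0.60, edgeR adjusted p = 0.064) were not called on this scale, and Cpt1b, Hadhb, Acad9 and Etfb had no value. With the most distal segment alone, 20 of the 28 genes could be fitted, and 3 were lower and 0 higher, where 6.59% of 5087 genes were lower and 4.54% higher. The lower genes were Acadm (−0.91), Echs1 (−0.68) and Hsd17b4 (−0.59), and Acsl1 (−0.65, edgeR adjusted p = 0.091) and Acad11 (−0.69, edgeR adjusted p = 0.097) were not called. Echs1 and Hsd17b4 have all their counts on 1 segment, so both fits used the same counts for them as the main fit (−0.39 and −0.29). For these genes only the library scaling and the genes fitted together differed. The distal segment of Acadm, with −0.91 here and −0.74 in the 3′UTR fit, had −0.59 when segments were fitted singly.

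Levels of different genes can be set side by side only per length of the counted segment. Over 13 genes with a full 500-bp segment in the canonical 3′UTR, the CTRL level was highest for Hadh (1937 ± 549 CPM per kb), Acadm (1870 ± 573) and Acadl (1842 ± 600), which did not differ beyond their spread. Next came Decr1 (543 ± 182 CPM per kb), Echs1 (497 ± 88.8) and Acads (479 ± 87.7), and then Acot2 (304 ± 205). Cpt1a had 72.9 ± 45.3 and Acsl3 10.7 ± 1.67 CPM per kb. With the ASO the 3 highest were Acadl (2240 ± 661 CPM per kb), Hadh (1777 ± 349) and Acadm (1208 ± 133).

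Several genes were highest in single libraries that also stood apart in their marker levels. Of the 28 genes tested, 17 had their highest control value in CTRL replicate 1, and 8 had theirs in CTRL replicate 3. The summed level of all 38 genes was 13630 CPM in CTRL replicate 1 and between 8192 and 9695 CPM in the other controls, against 6063 to 8136 CPM with the ASO. Slow oxidative fiber markers summed to 3110 CPM in CTRL replicate 1 and to 142 to 1256 CPM in the other controls, and to 8872 CPM in ASO replicate 4 and to 63.7 to 1861 CPM in the other treated libraries. Of these 9 markers 7 were tested, 0 were called by edgeR, DESeq2 or limma-voom, 0 had an unadjusted edgeR p under 0.05, and Tnnt1 was at 0 in all libraries. All 7 had positive log2 fold changes, from 0.17 to 1.70 with a median of 1.24. Adipocyte markers summed to 24489 CPM in CTRL replicate 3 and to 3920 to 12817 CPM in the other 9 libraries, and 0 of 8 tested were called by edgeR, DESeq2 or limma-voom, with 1 at an unadjusted edgeR p under 0.05. Negative log2 fold changes were seen in 7 of the 8 and a positive one in 1, with a median of −0.93. That list includes Car3, which muscle also expresses. Markers of myofibers summed to 45378 to 86659 CPM in CTRL and to 91894 to 147535 CPM with the ASO, without overlap. Ckm, Actn3 and Atp2a1 were called higher among the 5 myofiber markers tested, where 11.8% of all genes were. Several of these markers, Actn3 and Atp2a1 among them, belong to fast fibers. More RNA of fibers in general and more RNA of fast fibers therefore cannot be told apart. Mylpf and Tnnt3 of the same list were at 0. The part of these markers in the results was not tested.

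Leaving out CTRL replicates 1 and 3 and ASO replicate 4 together kept all 9 calls, 7 lower and 2 higher, and added 0. The median log2 fold change of the 28 genes was −0.09 without these 3 libraries, against 0.02 over all genes. Of the other marker lists, 1 of 6 macrophage genes tested (Mrc1) and 1 of 3 fibroblast genes tested (Lum) were lower with the ASO. These shares were 16.7% and 33.3%, against 17.4% of all genes. Brown adipocyte, endothelial, Schwann cell and blood markers had 0 calls among 2, 5, 3 and 4 genes tested by edgeR, DESeq2 or limma-voom, and 0 at an unadjusted edgeR p under 0.05. The call of Mrc1 was lost with limma-voom, which called 0 of the 6 macrophage genes.

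**Figure D5:**
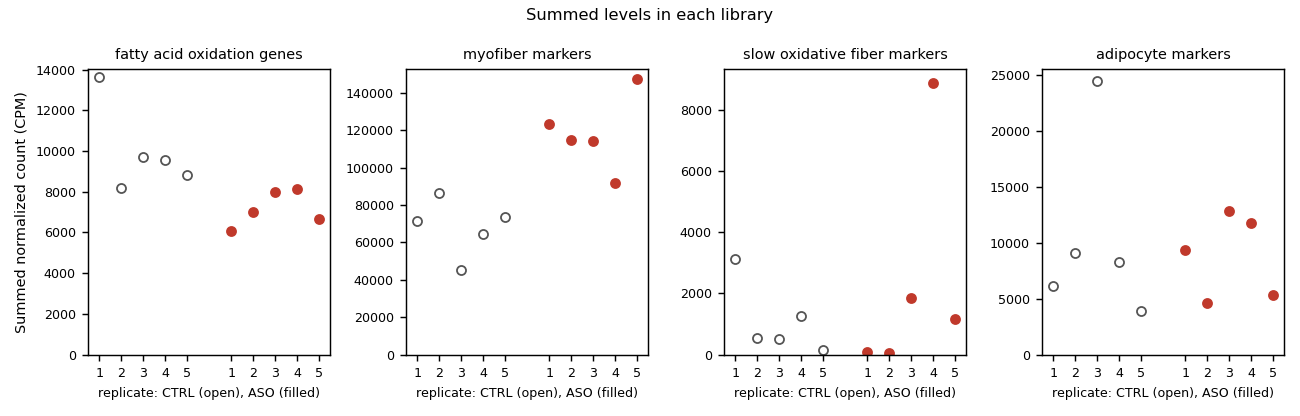
Summed normalized counts (CPM, linear axes from 0) of the 38 fatty acid oxidation genes and of myofiber, slow oxidative fiber and adipocyte markers in each library, with CTRL replicates 1 to 5 as open and ASO replicates 1 to 5 as filled circles. CTRL replicate 1 is highest for the fatty acid oxidation genes (13630 CPM), ASO replicate 4 for slow fiber markers (8872 CPM) and CTRL replicate 3 for adipocyte markers (24489 CPM), and the groups do not overlap for myofiber markers.

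Genes around the pathway were grouped by role. Of 6 genes of carnitine transport and malonyl-CoA control, 5 were tested and 1 was lower. Slc25a20, the carrier between Cpt1 and Cpt2, averaged 405 ± 109 CPM in CTRL and 423 ± 108 CPM with the ASO (log2 fold change 0.06, edgeR adjusted p = 0.84). Slc22a5, the carnitine importer of the cell membrane, went from 38.8 ± 7.36 to 19.1 ± 1.95 CPM (log2 fold change −1.02, edgeR adjusted p = 0.0013). Its most distal segment had −0.02 and a segment 923 bp upstream −1.46.

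Of 14 partners of peroxisomal oxidation, 10 were tested and 3 were lower (30.0%, against 17.4% of all genes). Abcd3, a transporter of branched acyl-CoA, went from 237 ± 29.7 to 116 ± 15.1 CPM (log2 fold change −1.04, edgeR adjusted p = 3.5e-04). Its 3′UTR segment had −0.45 (edgeR adjusted p = 0.042) and the segment 982 bp upstream of its last one −1.44 (edgeR adjusted p = 4.5e-05). Scp2, a thiolase and lipid carrier, had a log2 fold change of −0.76 (edgeR adjusted p = 0.010), and Hacl1, which cleaves 2-hydroxyacyl-CoA, one of −0.90 (edgeR adjusted p = 0.040). The most distal segment of Scp2 had −0.60 (edgeR adjusted p = 0.18), and the one 711 bp upstream −0.81 (edgeR adjusted p = 0.0056). Hacl1 rests on 157 counts, of which 4 lie on its most distal segment and 34.4% on a mostly intronic one 27696 bp upstream.

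Of 10 regulators of the pathway, 8 were tested, 3 were lower (37.5%, against 17.4% of all genes) and 0 were higher (against 11.8%). Ppara, the nuclear receptor that switches on fatty acid oxidation genes, had 26.2, 4.63, 12.3, 29.3 and 42.9 CPM in CTRL and 0.958, 1.26, 0.839, 4.56 and 2.81 CPM with the ASO. The groups did not overlap, although the highest treated library came close to the lowest control, and the log2 fold change was −3.41 (SE 0.61, edgeR adjusted p = 0.0018) on 242 counts in all. Esrrb and Esrrg, estrogen-related receptors, had log2 fold changes of −3.98 (edgeR adjusted p = 0.0022) and −1.43 (edgeR adjusted p = 0.036), and Esrrb rests on 123 counts. All 626 counts of Esrrg and 120 of those of Esrrb came from segments upstream of the most distal one. Ppard (log2 fold change 0.23, edgeR adjusted p = 0.16) and the coactivator Ppargc1a (−0.04, edgeR adjusted p = 0.92) did not pass the test with summed segments. The most distal segment of Ppard, with 81.6% of its counts, was higher (0.61, edgeR adjusted p = 0.0040), and one 1339 bp upstream was lower (−1.20, edgeR adjusted p = 0.0070). The most distal segment of Ppargc1a had 0.24 (edgeR adjusted p = 0.44), and a mostly intronic one with 9.42% of its counts was lower (−2.24, edgeR adjusted p = 2.4e-04). Esrra had at most 1.40 CPM in any library and was not tested, and Pparg was listed at 0.

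Of 9 target genes of the PPAR receptors, 8 were tested, 1 was lower (12.5%, against 17.4% of all genes) and 0 were higher. Their median log2 fold change was −0.56, with 6 negative and 2 positive. CTRL replicate 3 had 448 CPM of Plin2 (other controls 42.6 to 97.2) and 410 CPM of Angptl4 (35.1 to 106). It also had 5026 CPM of Lpl (1002 to 3172), and none of these genes passed the test. The most distal segment of Ucp3, with 74.4% of its counts, was higher (0.74, edgeR adjusted p = 0.046), and one 1126 bp upstream had −0.31. Cd36, the fatty acid importer, averaged 521 ± 202 CPM in CTRL and 284 ± 87.4 CPM with the ASO (log2 fold change −0.88, edgeR adjusted p = 0.029), and its most distal segment had −0.20. Pdk4, the kinase that spares glucose when fat is burned, had 2743, 1321, 1051, 1114 and 766 CPM in CTRL and 1181, 1662, 1997, 1333 and 1656 CPM with the ASO. Its groups overlapped, and the log2 fold change was 0.16 (SE 0.30, edgeR adjusted p = 0.71). Of 4 genes of ketone body use all were tested and 0 were called by edgeR, DESeq2 or limma-voom (0 at an unadjusted edgeR p under 0.05), with log2 fold changes from −0.62 to 0.33.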

How the data were processed

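The authors prepared libraries with a stranded mRNA kit. They used fastp for trimming, STAR for alignment (GRCm39) and featureCounts for counting fragments against the Gencode M25 annotation, keeping at most the final 500 bp of each 3′UTR. The deposited values are raw counts per transcript segment, with no normalization. No strand option is named, so a gene and one overlapping it on the other strand cannot be told apart. Of 52423 segment identifiers 52361 were found in GENCODE M39, and the other 62 hold 0.0197% of counts. Identifiers were mapped to symbols and segments summed per gene. The table holds 4 more columns of samples, which were left out.

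The test was that of edgeR 4.0.16 (R 4.3.3) on counts (TMM, filterByExpr by group, quasi-likelihood test, Benjamini-Hochberg adjusted p under 0.05). DESeq2 1.42.0 and limma-voom (limma 3.58.1) were alternatives. Further ones were RLE size factors, total counts, upper quartile, no filter, at least 10 counts in every library, the most distal segment alone, 3′UTR segments alone, single segments, equal depth, the replicate number as a block, and libraries left out. Single ratios used log2 of counts plus 0.5 and exact permutation tests (scipy 1.17.1). The fit was tested on simulated data. Library totals are 1606909 to 2632560 counts, and a count of 3, the floor, covers counting error only. The genes named with a value per library are those past the threshold and the gene with the highest mean in each role. Related genes and markers are named if past the threshold, up to 4 per list by adjusted p, together with Ppara, Ppard, Ppargc1a, Esrra, Slc25a20 and Pdk4. Some related genes that meet this rule are not reported here. The members and lists were chosen with earlier results of these data known. Marker lists were myofiber, slow oxidative fiber, adipocyte, brown adipocyte, macrophage, endothelial, fibroblast, Schwann cell and blood. Coordinates are 1-based on GRCm39.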

Additional observations from a re-analysis of the deposited data

Results flagged for a closer look

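In the 28 genes tested, 56 groups of 5 libraries were examined for a single library whose gap to the next one took up most of the range of the group, and 11 were found where chance gives about 1 in 20 groups. CTRL replicate 1 was the high library in 8 of them. The rate of 1 in 20 holds for independent groups of normal values. These genes share the same libraries, so the number found is not a test against that rate. CTRL replicate 1 had 2176 CPM of Acadm (other controls 1281 to 1484), 1451 CPM of Acadl (723 to 844), 1457 CPM of Hadh (807 to 880) and 723.5 CPM of Acaa2 (223 to 304). It also had 432.9 CPM of Decr1 (212 to 246), 109 CPM of Etfb (69.7 to 78.4), 25.74 CPM of Acot1 (3.92 to 8.36) and 333.2 CPM of Acot2 (88.7 to 124). CTRL replicate 3 was high in Cpt1a, with 76.49 CPM against 22.9 to 30.1 CPM in the other controls. With the ASO, replicate 4 was high in Cpt1b (626.8 CPM, others 483 to 510) and replicate 3 in Acot13 (415.1 CPM, others 205 to 255).

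Without the library in question, Acadm remained lower (log2 fold change −0.99) and Etfb higher (1.01, edgeR adjusted p = 0.0072), and Cpt1b remained lower (−0.65, edgeR adjusted p = 0.042). Acot13 was then not called (0.53, edgeR adjusted p = 0.069), nor was Acot2 (0.97, edgeR adjusted p = 0.054) or Acadl (0.51, edgeR adjusted p = 0.087). CTRL replicate 1 also had the highest sum of slow oxidative fiber markers among the controls (3110 CPM), and CTRL replicate 3 the highest sum of adipocyte markers of all libraries (24489 CPM). The part of these markers in the high values was not tested.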

How the results depend on the processing

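Of the 7 lower genes, Acadm, Acad9 and Hadhb kept direction and threshold wherever they had a value, Acsl1 and Acad11 in all but the most distal segment, Crat in all but that and the 3′UTR segments, and Cpt1b in 8 of 20 alternatives. Etfb stayed higher in 20 of 20 and Acot13 in 12 of 22. The 7 lower and 2 higher genes became 3 and 0 with the most distal segment alone, where 20 of the 28 genes could be fitted and 6.59% of all genes were lower and 4.54% higher. The count of higher genes was 1 with total counts, 1 with the replicate block and 0 with 3′UTR segments only. Without each library in turn, 6 to 8 genes were lower and 1 to 2 higher, and the median log2 fold change lay between −0.32 and −0.21. The ratio of Etfa to Etfb (−1.34) had an adjusted p of 0.19 with the replicate block, where 5 pairs cannot reach the threshold, and lay between −1.52 and −1.09 without each library.

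Signs turned only in values that were not called. Acaa1a had −0.086 with total counts, Acsl3 −8.7e-05 with limma-voom, Acadl −0.0083 with the most distal segment, and Acot1 0.037 with the replicate block and 0.099 at equal depth. Without CTRL replicate 1, Hadh had 0.072, Acaa2 0.28, Decr1 0.098 and Acot1 0.61, and the ratio of Acaa2 to Acaa1a 0.073 (the lowest values without 1 library were −0.20, −0.29, −0.24, −0.40 and −0.41). Without CTRL replicate 3 Acsl5 had 0.027 (lowest −0.51), and without ASO replicate 1 Acot1 had 0.086. Without ASO replicate 2 Acsl3 had −0.22 (highest 0.43) and Acot1 0.046. The ratio of Cpt1b to Cpt1a lay between −0.33 and 0.39 without each library, with −0.037 and −0.019 among the negative values, and the segment ratio of Acsl3 between −0.29 and 0.18, with 0.029. Without CTRL replicates 1 and 3 and ASO replicate 4, Hadh had 0.040, Acaa2 0.064, Decr1 0.12 and Acot1 0.37. The causes were not tested.

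No sign of pairing by replicate number was seen. Correlations of same-numbered deviations ran from −0.43 to 0.16, and those of different numbers from −0.59 to 0.48. With so few libraries this cannot show that the numbers do not pair mice. With the replicate block, 7 genes were called in place of 9. Fits on 3′UTR segments, on single segments, at equal depth and without 3 libraries were chosen after seeing the data, as were the segment ratios. Depth limits Acadvl, Acsl5, Decr2 and Acot1, with 111 to 209 counts each over 10 libraries.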
